A study of Homo sapiens with 54 samples.

Results

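A group of 10 genes was read across a set of cultures of MDA-MB-231, a long-established human breast cancer cell line: the ligand genes TGFB1 and TGFB2, the receptor genes TGFBR1 and TGFBR2, the signal transducer gene SMAD3, the pathway inhibitor genes SMAD7 and SKIL, and the target genes ID1, ID2 and ID3. They were chosen by name, as members of the transforming growth factor beta (TGF-beta) pathway and its targets, and make up 10 of the 27978 genes in the deposited count table. All 10 passed the filter on low counts in every comparison. The cells were given Compound Kushen Injection (CKI), an aqueous extract of 2 medicinal roots used in China beside cancer treatment, at 2 mg/ml, a reconstituted mixture of its components at the matching dose, or nothing (UT). Mixture OO held only the compounds Omt and Ospc, and MOO held only Mac, Omt and Ospc. Mixture N_2 was CKI without Omt and Ospc, and N_3 was CKI without Mac, Omt and Ospc. N_Mac, N_Nme, N_Omt and N_Tri were each CKI without the 1 compound in the name. Untreated cells, CKI, OO, MOO, N_2 and N_3 were sampled after 24 and 48 h in batch 1, and untreated cells, CKI, N_Mac, N_Nme, N_Omt and N_Tri after 48 h in batch 2, which gives 18 groups of 3 libraries. The design text calls the 3 libraries of a group biological replicates. All libraries come from 1 line, so no value below says how other cells respond, and in RNA from a whole culture fewer cells that express a gene and less RNA per cell cannot be told apart.

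TGF-beta ligands are secreted in a latent form and, once freed, bind a receptor pair in which TGFBR2 phosphorylates TGFBR1. TGFBR1 then phosphorylates SMAD2 and SMAD3, which enter the nucleus with SMAD4 and switch genes on or off. SMAD7 and SKIL (also called SnoN) are themselves switched on by the pathway and dampen it, SMAD7 at the receptor and SKIL at the SMAD complex on DNA. ID1, ID2 and ID3 lack a DNA-binding region and hold basic helix-loop-helix factors inactive, and they respond to TGF-beta and, more directly, to bone morphogenetic protein (BMP) signals. In breast cancer cells the pathway is known for its part in growth arrest, migration and the mesenchymal state.

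Levels are given as CPM, the read count scaled to a common library size after TMM scaling over all 54 libraries. Total counts per library were between 17673537 and 26138924. Each group was compared with untreated cells of its own time and batch by edgeR's quasi-likelihood test, and a gene was called where its p-value, adjusted by the method of Benjamini and Hochberg over the genes tested, was below 0.05. Every adjusted p below is of this kind unless another tool is named. Each SE was derived from the same test, as the size of the log2 fold change divided by the square root of its F statistic. It therefore adds no information on the spread beyond that test. The groups of 1 time and batch share the same 3 untreated libraries, so their comparisons are not independent of each other. Where leaving out 1 library ended or made a call, the range of the log2 fold changes over all such fits is given, with the largest adjusted p for a call that was lost and the smallest for one that appeared. The share of all genes called in such a fit is given in some places only. Elsewhere a call that appeared cannot be called particular to its gene. In the 9 untreated libraries the mesenchymal markers were high, with 1149 to 1562 CPM of VIM and 414 to 638 CPM of CD44, and the oestrogen receptor gene ESR1 was between 0 and 0.298 CPM. AXL held 822 to 1071 CPM and MET 108 to 247 CPM. Of the other genes expected to be low or absent in this line, PGR was at most 0.0923 CPM and CDH1 0.875 to 7.20 CPM. ERBB2, at 88.9 to 114 CPM, and EPCAM, at 15.6 to 21.9 CPM, were clearly detected. The leukocyte marker PTPRC was at most 0.504 CPM and the endothelial marker PECAM1 at most 1.501 CPM. In batch 1, the columns of 3 libraries at 24 h lack a replicate number, CKI replicate 1, OO replicate 2 and N_3 replicate 2 (the unnumbered libraries). Over 710 genes that differed between untreated cells of the 2 batches, their differences from the other replicates of the group followed the difference of batch 2 from batch 1 with slopes of 0.682, 0.591 and 0.592, while batch 1's other 33 libraries had slopes from -0.407 to 0.0984. This slope sets the unnumbered libraries apart, but the overall spread does not. By the median absolute log2 difference from the other replicates of the group, which was 0.265, 0.244 and 0.325 in the unnumbered libraries, OO replicate 1 (0.316) and N_2 replicate 3 (0.286) at 24 h lay further out than 2 of the 3. Calls of the 10 genes at 24 h that changed without an unnumbered library are given both ways.

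Against untreated cells, 110 of the 150 pairs of a member and a treated group were called, 65 higher and 45 lower. SMAD7 was the member called in 1 direction most often, together with ID1. SMAD7 was higher in 14 of the 15 treated groups and ID1 lower in 14 of 15. TGFB2 was lower in 13 groups and higher in 1, ID3 lower in 11 and higher in 1, SKIL higher in 11, and TGFB1 and TGFBR1 higher in 10 each. ID2 was higher in 9 groups, SMAD3 higher in 7 and lower in 2, and TGFBR2 higher in 2 and lower in 5. How many of all genes were called in 1 direction as often was not counted, so no such count can be called particular to a member.

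**Figure D1:**
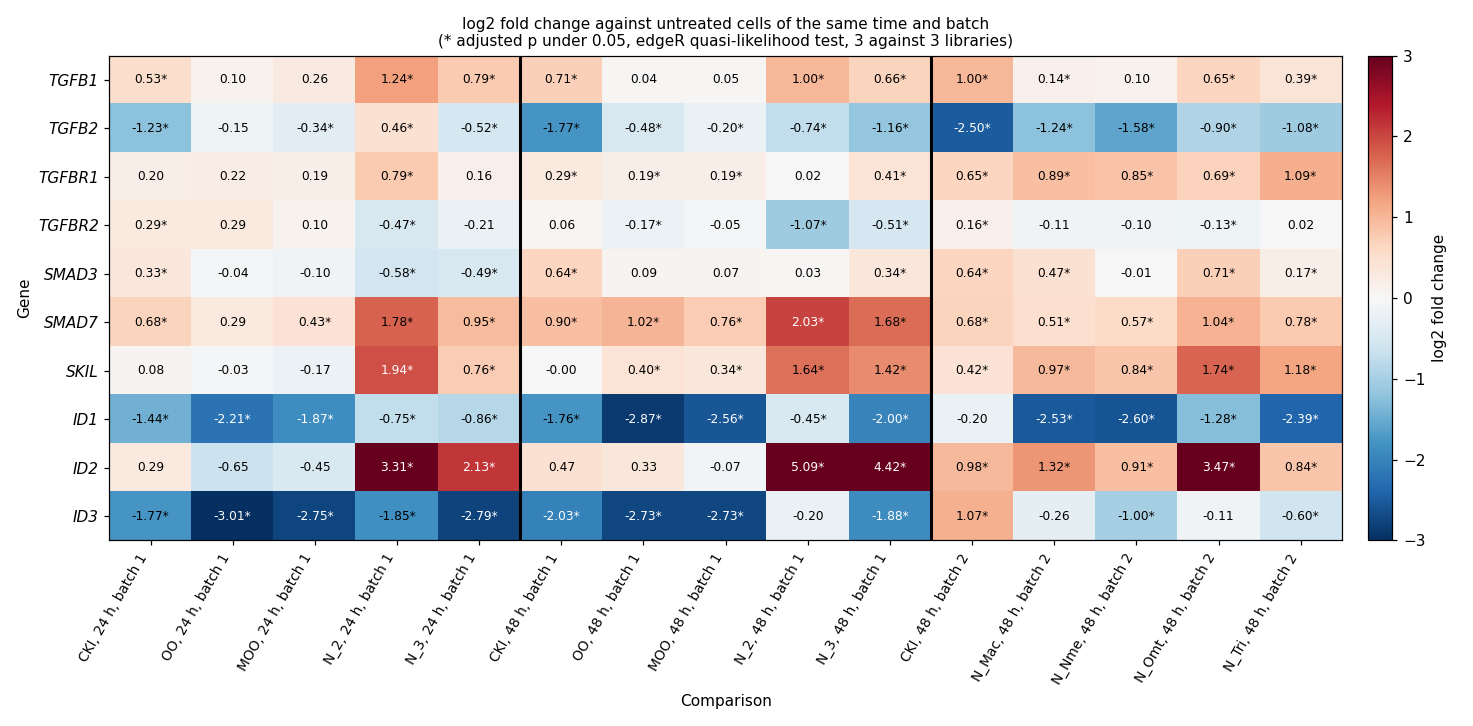
Log2 fold change of the 10 genes (rows) in the 15 treated groups (columns) against untreated cells of the same time and batch, 3 libraries against 3. Red is higher and blue lower than in untreated cells, the colour scale ends at 3 in either direction, and stars mark values called at an adjusted p under 0.05. The SMAD7 row is starred in 14 columns and the ID1 row in 14, and the strongest red of ID2 lies in N_2, N_3 and N_Omt.

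Large shares of all genes were called as well, so these counts have to be read beside the share of all genes. At 24 h, 7 of 10 members were called with CKI, where 38.7% of all genes tested were, 2 with OO (16.5% of all genes), 4 with MOO (35.8%), 10 with N_2 (66.8%) and 8 with N_3 (45.9%). In batch 1 at 48 h the number was 7 with CKI (62.5% of all genes), 7 with OO (67.8%), 6 with MOO (60.5%), 7 with N_2 (80.4%) and 10 with N_3 (64.7%). In batch 2 it was 9 with CKI (68.4%), 8 with N_Mac (72.6%), 7 with N_Nme (69.5%), 9 with N_Omt (79.6%) and 9 with N_Tri (74.3%). Over both batches, with the batch as a term and 6 libraries against 6, 9 members were called with CKI at 48 h (71.5% of all genes). The members' shares lay near those of all genes in many groups, and what sets the members apart from each other is the size and direction of their changes. At 24 h the counts moved with single libraries. So did the share of all genes. Without untreated replicate 1 or 2, 4 members were called with CKI (22.8% and 22.6% of all genes), and without CKI replicate 1, 8 were (53% of all genes). Without untreated replicate 3 or CKI replicate 2, 5 were called (27.1% and 28.4%). Without any 1 untreated library or N_3 replicate 3, 3 were called with N_3 (29.1% to 32.9% of all genes), without N_3 replicate 1, 5 were (39.1%), and without N_3 replicate 2, 9 were (68.3%).

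TGFB1 encodes the most widely expressed ligand of the family. In batch 1 at 48 h it stood at 227, 256 and 277 CPM in the 3 untreated libraries, at 409.7, 419 and 402 CPM with CKI and at 521, 483 and 492 CPM with N_2. The CKI and N_2 libraries all lay above the untreated ones (log2 fold change 0.71 ± 0.06 (SE), edgeR adjusted p = 3.09e-08 with CKI, and 1.002 ± 0.07 (SE, edgeR adjusted p = 4.83e-12) with N_2). OO and MOO held 266, 265 and 253 CPM and 228, 303 and 255 CPM, within or next to the untreated range, and neither was called, with log2 fold changes of 0.04 and 0.05. In batch 2 the untreated libraries were lower, at 141, 148 and 147 CPM, and CKI raised them to 297, 274 and 292 CPM (log2 fold change 1.002 ± 0.04 (SE), edgeR adjusted p = 7.07e-10). N_Omt held 227, 214 and 235 CPM (log2 fold change 0.65 ± 0.05 (SE), edgeR adjusted p = 8.16e-09) and N_Tri 178, 192 and 201 CPM, both above untreated and below CKI with no overlap. N_Mac and N_Nme lay close to untreated cells, N_Mac with a log2 fold change of 0.14 ± 0.05 (SE, edgeR adjusted p = 0.0193) and N_Nme with 0.10, which was not called. At 24 h TGFB1 was 247 ± 15.8 CPM (SD, n = 3) in untreated cells, 357 ± 61.8 CPM (SD, n = 3) with CKI and 568 ± 138 CPM (SD, n = 3) with N_2, and the N_2 difference was 1.24 ± 0.17 (SE, edgeR adjusted p = 0.000269). The CKI call at 24 h was lost without untreated replicate 2 or 3, and the N_3 call without any 1 untreated library or N_3 replicate 1 or 3 (log2 fold changes over the 6 fits of 0.42 to 0.65 with adjusted p up to 0.0655 and of 0.59 to 1.02 with adjusted p up to 0.0951). The N_Mac call was lost without untreated replicate 1 or N_Mac replicate 2 (0.11 to 0.16 with adjusted p up to 0.146). MOO at 24 h was called without MOO replicate 3 only (0.18 to 0.38 with adjusted p from 0.000858).

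TGFB2, a second ligand gene, moved the other way. In batch 2 it was 97.0, 100.3 and 100.03 CPM in untreated cells and 17.1, 16.8 and 18.0 CPM with CKI, a 5.67-fold lower level (log2 fold change -2.50 ± 0.05 (SE), edgeR adjusted p = 1.89e-12). Each of the mixtures that lack 1 compound held it between these levels, with 30.1, 34.8 and 34.9 CPM in N_Nme, 40.8, 44.2 and 40.1 CPM in N_Mac, 45.8, 47.6 and 47.7 CPM in N_Tri and 51.4, 52.6 and 54.2 CPM in N_Omt. No library of these groups overlapped the untreated or the CKI libraries. In batch 1 at 48 h the untreated libraries stood at 142, 128 and 126 CPM and the CKI libraries at 34.6, 38.3 and 41.7 CPM (log2 fold change -1.77 ± 0.07 (SE), edgeR adjusted p = 4.91e-13). OO held 94.7, 95.7 and 93.2 CPM and MOO 107, 115 and 122 CPM, the smallest falls of this gene in batch 1 at 48 h, at -0.48 ± 0.05 (SE, edgeR adjusted p = 1.91e-07) and -0.20 ± 0.06 (SE, edgeR adjusted p = 0.011). N_3 fell by more, to 58.9, 67.8 and 48.2 CPM (log2 fold change -1.16 ± 0.12 (SE), edgeR adjusted p = 9.4e-06). At 24 h TGFB2 went from 79.4, 88.9 and 107 CPM in untreated cells to 28.1, 48.0 and 41.3 CPM with CKI (log2 fold change -1.23 ± 0.19 (SE), edgeR adjusted p = 0.00235), and without CKI replicate 1 the value was -1.04 (edgeR adjusted p = 2.55e-05). N_2 was the exception to the direction, with 128, 141 and 102 CPM at 24 h, and its libraries overlapped the untreated ones (log2 fold change 0.46 ± 0.15 (SE), edgeR adjusted p = 0.0236). Scaled by library totals alone, the N_2 value at 24 h was 0.16 (edgeR adjusted p = 0.366), and the call was also lost without untreated replicate 1 or 2 or N_2 replicate 1 or 2 (log2 fold changes of 0.35 to 0.61 with adjusted p up to 0.107). The MOO call at 24 h was lost without untreated replicate 2 or 3 or MOO replicate 1 or 2 (-0.45 to -0.22 with adjusted p up to 0.159), the N_3 call at 24 h without untreated replicate 2 or 3 or N_3 replicate 1 or 3 (-0.63 to -0.41 with adjusted p up to 0.0897), and the MOO call at 48 h without MOO replicate 1 (-0.25 to -0.16 with adjusted p up to 0.0721).

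**Figure D2:**
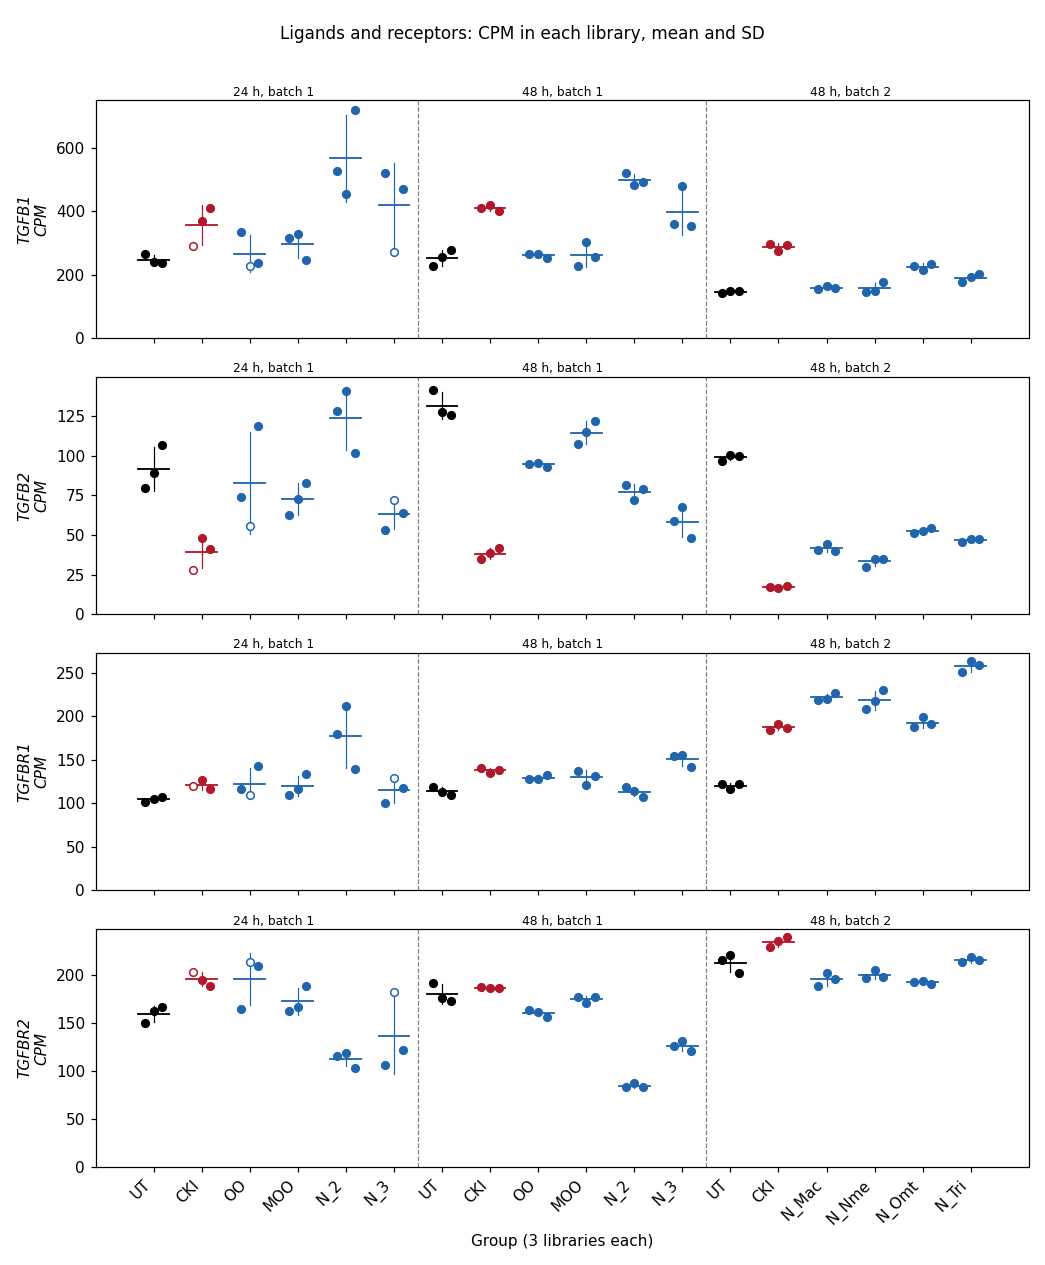
CPM (vertical axes, linear and from 0) of TGFB1, TGFB2, TGFBR1 and TGFBR2 in each of the 54 libraries by group, with the mean (horizontal line) and SD (vertical line) of 3 libraries. Black is untreated, red CKI and blue a mixture, and open points are the 3 unnumbered libraries. In batch 2 the TGFB2 libraries with CKI lie between 16.8 and 18.0 CPM, below all others, and all TGFBR1 libraries of the treated groups lie above the untreated ones.

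TGFBR1 encodes the type I receptor that passes the signal to SMAD3, and its rise was steadiest in batch 2. There the untreated libraries held 123, 117 and 122 CPM and the CKI libraries 184, 191 and 186 CPM (log2 fold change 0.65 ± 0.04 (SE), edgeR adjusted p = 1.24e-08). N_Tri reached 251, 264 and 259 CPM, the highest level of this gene among the 18 groups, a 2.13-fold rise (log2 fold change 1.09 ± 0.04 (SE), edgeR adjusted p = 1.59e-10). N_Mac, N_Nme and N_Omt had log2 fold changes of 0.89, 0.85 and 0.69, all called, and none of the 15 treated libraries of batch 2 overlapped the untreated ones. In batch 1 at 48 h the rises were smaller, from 0.19 ± 0.05 (SE, edgeR adjusted p = 0.00284) with OO to 0.41 ± 0.09 (SE, edgeR adjusted p = 0.00189) with N_3, and N_2, at 119, 114 and 108 CPM beside 119, 113 and 109.8 CPM in untreated cells, was not called. At 24 h the N_2 libraries held 179.8, 213 and 139.8 CPM beside 102, 105 and 108 CPM (log2 fold change 0.79 ± 0.14 (SE), edgeR adjusted p = 0.00128), and N_2 was the 1 group called at that time. CKI at 24 h was called for TGFBR1 without CKI replicate 1, at 0.20 (edgeR adjusted p = 0.0239), and MOO without MOO replicate 1 (0.11 to 0.25 with adjusted p from 0.0266). The MOO call at 48 h was lost without untreated replicate 3 or MOO replicate 1 (0.14 to 0.24 with adjusted p up to 0.0803).

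TGFBR2, the type II receptor that binds the ligand first, changed little outside 2 mixtures. With N_2 it fell at 48 h from 192, 176 and 173 CPM to 82.7, 87.0 and 83.4 CPM, a 2.10-fold lower level with no overlap (log2 fold change -1.07 ± 0.06 (SE), edgeR adjusted p = 2.94e-13), and with N_3 to 125, 131 and 120.4 CPM (log2 fold change -0.51 ± 0.09 (SE), edgeR adjusted p = 0.000496). N_2 was already lower at 24 h, with 116, 119 and 103 CPM beside 150.2, 162 and 166 CPM (log2 fold change -0.47 ± 0.10 (SE), edgeR adjusted p = 0.0026). N_3 at 24 h was not called, at -0.21, but without N_3 replicate 2 it was -0.47 (edgeR adjusted p = 6.47e-05). The other called changes were under 0.3 on the log2 scale in size. CKI was higher at 24 h (0.29 ± 0.08 (SE, edgeR adjusted p = 0.0234)) and in batch 2 (0.16 ± 0.04 (SE, edgeR adjusted p = 0.00556)), and OO at 48 h and N_Omt were lower, at -0.17 and -0.13. The CKI call at 24 h was lost without any 1 untreated library or CKI replicate 2 (0.25 to 0.32 with adjusted p up to 0.107) and the N_Omt call without untreated replicate 1 or N_Omt replicate 3 (-0.18 to -0.11 with adjusted p up to 0.0591). Calls appeared for CKI in batch 1 at 48 h without untreated replicate 1 (0.04 to 0.11 with adjusted p from 0.0487), for OO at 24 h without OO replicate 1 (0.22 to 0.40 with adjusted p from 0.00559) and for N_Mac without untreated replicate 3 (-0.16 to -0.09 with adjusted p from 0.0127). With library totals alone, OO at 48 h was -0.07 (edgeR adjusted p = 0.251) and N_Omt -0.10 (edgeR adjusted p = 0.0668).

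SMAD3, the transducer that TGFBR1 phosphorylates, rose with whole CKI at each time and in each batch. In batch 1 at 48 h it went from 183, 166 and 183 CPM in untreated cells to 255, 288 and 277 CPM with CKI (log2 fold change 0.64 ± 0.06 (SE), edgeR adjusted p = 4.45e-08), and in batch 2 from 126, 138 and 117 CPM to 205, 189 and 192 CPM (log2 fold change 0.64 ± 0.06 (SE), edgeR adjusted p = 6.35e-07). Neither set overlapped, and the increases were of nearly the same size. N_Omt reached 209.7, 202 and 205 CPM (log2 fold change 0.71 ± 0.06 (SE), edgeR adjusted p = 1.74e-08) and N_Mac 165, 187 and 171 CPM (log2 fold change 0.47 ± 0.07 (SE), edgeR adjusted p = 1.17e-05). N_Nme stayed at 125, 132 and 126 CPM, inside the untreated range, with a log2 fold change of -0.01. OO and MOO were not called at either time, with log2 fold changes between -0.10 and 0.09. N_2 and N_3 were lower than untreated cells at 24 h, with 115, 113 and 114 CPM and 123, 125 and 122 CPM beside 164, 171 and 190.2 CPM (-0.58 ± 0.10 (SE, edgeR adjusted p = 7e-04) and -0.49 ± 0.09 (SE, edgeR adjusted p = 0.00467)). At 48 h N_3 was higher (0.34 ± 0.10 (SE, edgeR adjusted p = 0.0114)) and N_2 was not called (0.03). The CKI call at 24 h (0.33 ± 0.09 (SE, edgeR adjusted p = 0.0229)) was lost without untreated replicate 1 or 2 or CKI replicate 2 (0.28 to 0.39 with adjusted p up to 0.104), the N_3 call at 48 h without untreated replicate 2 (0.29 to 0.41 with adjusted p up to 0.0856), and the N_Tri call without untreated replicate 1 or 3 or N_Tri replicate 2 (0.09 to 0.22 with adjusted p up to 0.0764). A call for OO at 48 h appeared without untreated replicate 1 (0.04 to 0.11 with adjusted p from 0.032).

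SMAD7, the inhibitory SMAD that the pathway itself induces, was higher in all treated groups but OO at 24 h. The largest rise was with N_2 at 48 h, from 13.7, 15.8 and 18.5 CPM to 72.8, 56.0 and 63.6 CPM, a 4.08-fold higher level (log2 fold change 2.03 ± 0.10 (SE), edgeR adjusted p = 1.55e-14), followed by N_2 at 24 h, with 56.6, 47.6 and 76.7 CPM beside 15.2, 19.3 and 19.5 CPM (log2 fold change 1.78 ± 0.19 (SE), edgeR adjusted p = 7.17e-05). N_3 at 48 h held 56.0, 50.6 and 46.1 CPM (log2 fold change 1.68 ± 0.13 (SE), edgeR adjusted p = 8.93e-07). No library of these groups overlapped the untreated ones. CKI raised SMAD7 to 31.8, 30.5 and 26.8 CPM in batch 1 at 48 h (log2 fold change 0.90 ± 0.10 (SE), edgeR adjusted p = 2.62e-07) and from 12.7, 9.66 and 14.2 CPM to 20.7, 17.7 and 19.6 CPM in batch 2 (log2 fold change 0.68 ± 0.12 (SE), edgeR adjusted p = 0.000173). In batch 2 the rises with N_Mac, N_Nme and N_Tri were 0.51, 0.57 and 0.78, and N_Omt had the largest, 1.04 ± 0.11 (SE, edgeR adjusted p = 4.37e-07). OO at 48 h held 33.0, 34.3 and 30.3 CPM, about the level with CKI (log2 fold change 1.02 ± 0.09 (SE), edgeR adjusted p = 7.44e-09). At 24 h OO was not called, at 0.29, but without OO replicate 2 it was 0.49 (edgeR adjusted p = 0.0461). The CKI call at 24 h (0.68 ± 0.16 (SE, edgeR adjusted p = 0.0121)) was lost without untreated replicate 1 (0.57 to 0.81 with adjusted p up to 0.0548). The N_3 call at 24 h, with 39.5, 19.4 and 44.2 CPM, was lost without any 1 untreated library or N_3 replicate 1 or 3 (0.73 to 1.23 with adjusted p up to 0.114), and replicate 2 of N_3, one of the unnumbered libraries, lay inside the untreated range.

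SKIL, a nuclear repressor of SMAD complexes, rose most in N_2, in N_3 at 48 h and in N_Omt. These mixtures lack Omt, N_2 and N_3 lack Ospc as well, and N_3 also lacks Mac. With N_2 SKIL was 61.8, 69.0 and 43.5 CPM at 24 h and 46.4, 42.1 and 44.2 CPM at 48 h, beside 14.8, 15.4 and 16.0 CPM and 16.3, 14.9 and 12.0 CPM in untreated cells. These are 3.84-fold and 3.12-fold rises (1.94 ± 0.17 (SE, edgeR adjusted p = 1.94e-05) and 1.64 ± 0.09 (SE, edgeR adjusted p = 1.4e-13)). N_3 held 37.9, 39.5 and 36.9 CPM at 48 h (log2 fold change 1.42 ± 0.12 (SE), edgeR adjusted p = 2.06e-06), and N_Omt held 49.3, 52.0 and 54.6 CPM beside 15.2, 15.9 and 15.9 CPM in untreated cells of batch 2 (log2 fold change 1.74 ± 0.06 (SE), edgeR adjusted p = 2.82e-12). None of these libraries overlapped the untreated ones. The other mixtures of batch 2 rose by less, to 35.4, 36.3 and 34.7 CPM in N_Tri, 28.9, 30.4 and 32.1 CPM in N_Mac and 26.6, 29.2 and 28.8 CPM in N_Nme (log2 fold changes of 1.18, 0.97 and 0.84). Whole CKI left SKIL uncalled in batch 1, with 14.6, 14.4 and 13.9 CPM at 48 h and log2 fold changes of 0.08 at 24 h and -0.0028 at 48 h, and raised it to 21.9, 19.7 and 20.8 CPM in batch 2 (log2 fold change 0.42 ± 0.07 (SE), edgeR adjusted p = 0.000124). Over both batches the CKI value was 0.22 ± 0.09 (SE, edgeR adjusted p = 0.03), and 6 of the 12 fits that leave out 1 library lost the call (0.18 to 0.30 with adjusted p up to 0.0855), those without batch 1 untreated replicate 3, any 1 untreated library of batch 2, or batch 2 CKI replicate 1 or 3. OO and MOO at 48 h were called at 0.40 and 0.34, the MOO call being lost without untreated replicate 3 (0.22 to 0.43 with adjusted p up to 0.0558). The N_3 call at 24 h (0.76 ± 0.19 (SE, edgeR adjusted p = 0.0154)) was lost without any 1 untreated library or N_3 replicate 3 (0.60 to 0.95 with adjusted p up to 0.0628).

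**Figure D3:**
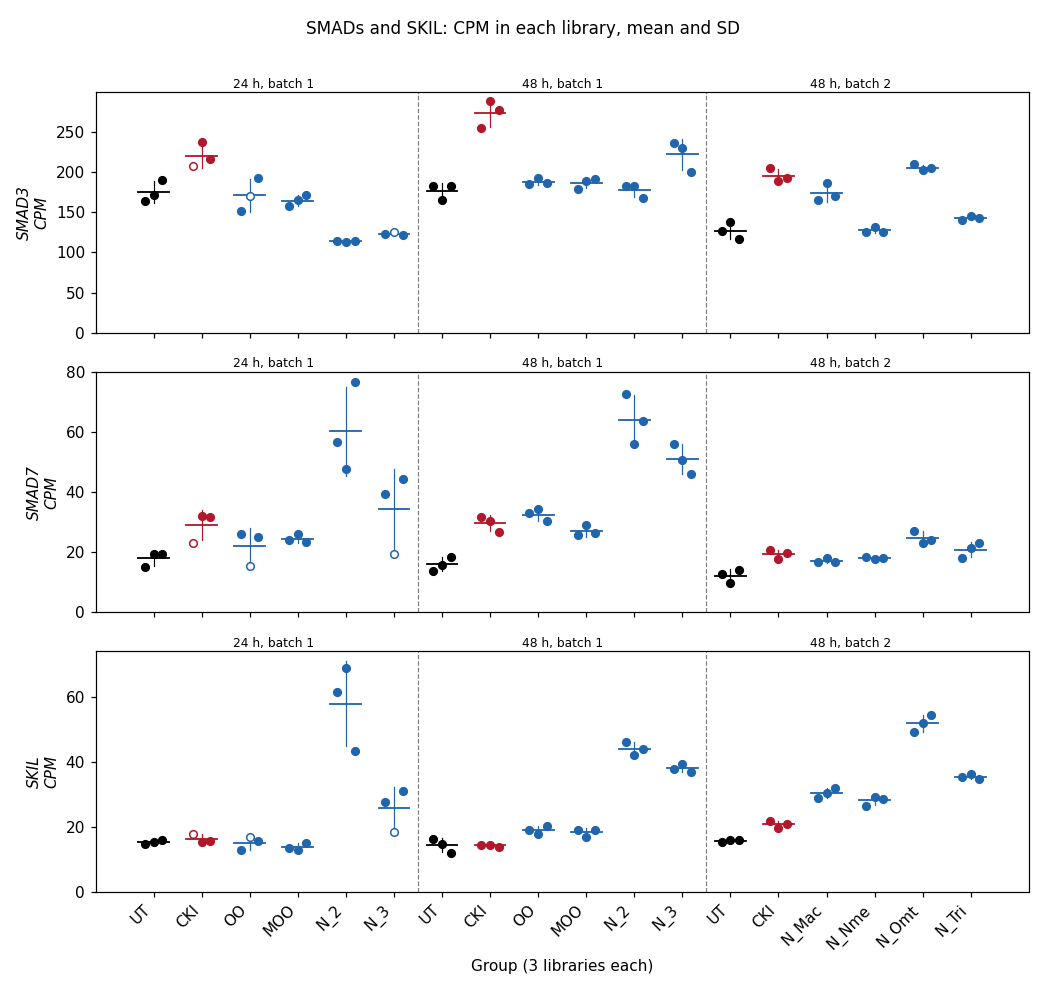
CPM (vertical axes, linear and from 0) of SMAD3, SMAD7 and SKIL in each of the 54 libraries by group, with the mean (horizontal line) and SD (vertical line) of 3 libraries, coloured as for the ligands. The SKIL libraries of N_2, of N_3 at 48 h and of N_Omt lie between 36.9 and 69.0 CPM, above all libraries of untreated cells, CKI, OO and MOO.

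The ID genes and SMAD7 are among the best known direct targets of SMAD proteins, so the 250 bases before their RefSeq start sites (GRCh38.p14, 5′ to 3′ on the strand of the gene) are shown here. Capitals mark 3 SMAD-type motifs on either strand. The first is CAGAC, the short core of the classical SMAD box. The second, GGCGCC, is a GC-rich SMAD site. The related letters GGAGCC were the third. Windows from 250 bases before to 50 after the start were matched for all 10 members. Each gene had 1 window, at the outer end of its RefSeq span, and windows at any other annotated start were not searched.
ID1, chr20:31605039-31605288, + strand: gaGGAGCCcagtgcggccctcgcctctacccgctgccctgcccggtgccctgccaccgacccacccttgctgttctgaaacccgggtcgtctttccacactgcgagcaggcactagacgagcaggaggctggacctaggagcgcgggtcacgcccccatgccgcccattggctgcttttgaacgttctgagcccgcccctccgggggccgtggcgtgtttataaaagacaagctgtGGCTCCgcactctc
ID2, chr2:8681806-8682055, + strand: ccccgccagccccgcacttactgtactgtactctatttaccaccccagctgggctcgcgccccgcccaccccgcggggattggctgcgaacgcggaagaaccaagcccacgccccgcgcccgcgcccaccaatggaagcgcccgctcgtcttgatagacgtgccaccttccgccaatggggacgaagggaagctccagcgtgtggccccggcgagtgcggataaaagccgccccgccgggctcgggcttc
ID3, chr1:23559502-23559751, - strand: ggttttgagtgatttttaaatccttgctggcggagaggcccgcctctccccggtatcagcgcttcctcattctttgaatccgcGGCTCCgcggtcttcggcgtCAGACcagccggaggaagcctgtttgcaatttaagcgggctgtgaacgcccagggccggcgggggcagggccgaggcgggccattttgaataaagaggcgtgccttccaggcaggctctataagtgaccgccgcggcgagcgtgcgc
SMAD7, chr18:48950966-48951215, - strand: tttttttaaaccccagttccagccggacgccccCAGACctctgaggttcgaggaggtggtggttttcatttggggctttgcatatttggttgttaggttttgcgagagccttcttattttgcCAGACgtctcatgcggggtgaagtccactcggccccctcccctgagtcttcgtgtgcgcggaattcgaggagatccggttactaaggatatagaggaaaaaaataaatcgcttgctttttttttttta
The SKIL window, not shown, held 3 matches of GGAGCC and 1 each of CAGAC and GGCGCC. The ID1 window held 2 matches of GGAGCC, the ID3 window 1 of GGAGCC and 1 of CAGAC, the SMAD7 window 2 of CAGAC, and the ID2 window none of the 3. Of the other windows, also not shown, that of SMAD3 held 2 matches of GGCGCC and 1 each of CAGAC and GGAGCC. The TGFB2 window held 2 of CAGAC, the TGFB1 window 2 of GGAGCC, the TGFBR1 window 1 of GGAGCC and the TGFBR2 window none of the 3. The letters CAGAC occur in 45.3% of the 35116 RefSeq promoter windows of the same length, GGAGCC in 36.0% and GGCGCC in 19.2%, so a match is common. The SMAD palindrome GTCTAGAC, in 0.202% of all windows, was in none of the 10 windows searched. That does not say whether it lies elsewhere in these genes or near another start. The E-box CANNTG, the site of basic helix-loop-helix factors, is in 68.7% of all windows. It was matched once in ID2 and once in SMAD7 but not in ID1 or ID3. These are matches of letters in short windows and no measure of binding.

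ID1 was lower than in untreated cells in 14 of the 15 treated groups. With OO at 48 h it went from 46.9, 47.9 and 44.5 CPM to 6.80, 5.52 and 6.81 CPM, a 7.29-fold lower level (log2 fold change -2.87 ± 0.08 (SE), edgeR adjusted p = 6.38e-16), and with MOO to 8.06, 8.29 and 7.33 CPM (log2 fold change -2.56 ± 0.08 (SE), edgeR adjusted p = 3.12e-13). CKI in batch 1 at 48 h held 14.7, 12.8 and 13.3 CPM (log2 fold change -1.76 ± 0.07 (SE), edgeR adjusted p = 9.39e-13). N_2 at 48 h kept most of the expression, with 36.5, 32.7 and 31.0 CPM (log2 fold change -0.45 ± 0.07 (SE), edgeR adjusted p = 6.87e-06), and N_3 fell to 13.3, 7.15 and 13.9 CPM, replicate 2 being the lowest (log2 fold change -1.997 ± 0.20 (SE), edgeR adjusted p = 5.94e-06). In all these groups the libraries lay below every untreated library. Batch 2 gave another picture for whole CKI, whose 25.4, 21.3 and 21.6 CPM overlapped the untreated 27.5, 28.6 and 22.9 CPM (log2 fold change -0.20 ± 0.09 (SE), edgeR adjusted p = 0.0737). N_Mac, N_Nme and N_Tri fell to 4.89, 3.98 and 4.72 CPM, 4.35, 4.38 and 4.37 CPM and 5.66, 4.17 and 5.50 CPM, with log2 fold changes of -2.53, -2.60 and -2.39, and N_Omt to 10.03, 11.2 and 11.0 CPM (log2 fold change -1.28 ± 0.09 (SE), edgeR adjusted p = 6.99e-09). The CKI value of batch 2 was called without untreated replicate 3 or CKI replicate 1 (log2 fold changes over the 6 fits of -0.30 to -0.14 with adjusted p from 0.000705).

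At 24 h ID1 stood at 60.6, 59.1 and 48.4 CPM in untreated cells, 14.6, 13.3 and 8.57 CPM with OO and 18.1, 16.2 and 11.8 CPM with MOO (-2.21 ± 0.20 (SE, edgeR adjusted p = 0.000812) and -1.87 ± 0.14 (SE, edgeR adjusted p = 3.6e-06)). With CKI it was 31.1, 13.6 and 17.2 CPM, the highest value being that of the unnumbered replicate 1 (log2 fold change -1.44 ± 0.28 (SE), edgeR adjusted p = 0.00602), and without that library the fall was -1.88 (edgeR adjusted p = 5.06e-07). N_2 had libraries at 23.0, 23.3 and 51.0 CPM, of which replicate 3 overlapped the untreated cells, and its call (-0.75 ± 0.29 (SE, edgeR adjusted p = 0.0495)) held only without that replicate among the 6 fits that leave out 1 library (at -1.22 (edgeR adjusted p = 1.17e-08), and otherwise with adjusted p up to 0.164). The N_3 call (-0.86 ± 0.25 (SE, edgeR adjusted p = 0.0255)) was lost without untreated replicate 1 or 2 or N_3 replicate 3 (-1.11 to -0.62 with adjusted p up to 0.0807), and was -0.62 (edgeR adjusted p = 0.000123) without N_3 replicate 2.

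ID2 was near the lower end of detection in most groups, with raw counts between 7 and 38 in the untreated, CKI, OO and MOO libraries. Against that low level the rise in 3 mixtures stood out. N_2 held 25.3, 21.9 and 20.7 CPM at 48 h beside 0.530, 0.606 and 0.883 CPM in untreated cells, from 436 to 580 counts, a 34.1-fold higher level (log2 fold change 5.09 ± 0.16 (SE), edgeR adjusted p = 7.26e-18). N_3 held 17.1, 8.17 and 17.6 CPM, with replicate 2 the lowest, from 153 to 404 counts (log2 fold change 4.42 ± 0.35 (SE), edgeR adjusted p = 1.04e-06). N_Omt held 6.33, 6.45 and 5.84 CPM beside 0.667, 0.510 and 0.500 CPM in batch 2, from 116 to 155 counts (log2 fold change 3.47 ± 0.18 (SE), edgeR adjusted p = 1.47e-10). All libraries of these 3 groups lay above all untreated libraries. N_2 had already reached 6.62, 5.23 and 11.6 CPM at 24 h beside 0.672, 1.07 and 0.646 CPM (log2 fold change 3.31 ± 0.37 (SE), edgeR adjusted p = 8.49e-05). N_3 at 24 h was 4.27, 1.27 and 4.96 CPM, its replicate 2 being close to the untreated cells (log2 fold change 2.13 ± 0.53 (SE), edgeR adjusted p = 0.0139), and this call was lost without untreated replicate 1 or 3 (1.80 to 2.52 with adjusted p up to 0.0641) and was 2.52 (edgeR adjusted p = 1.63e-07) without N_3 replicate 2. These 3 mixtures are the ones that lack Omt, and N_2 and N_3 lack Ospc as well. In batch 1 CKI, OO and MOO were not called at either time, with log2 fold changes between -0.65 and 0.47.

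The other 4 treated groups of batch 2 were called higher for ID2 at levels of at most 2.503-fold, from 0.84 with N_Tri to 1.32 with N_Mac on the log2 scale. CKI held 0.735, 0.928 and 1.61 CPM (log2 fold change 0.98 ± 0.33 (SE), edgeR adjusted p = 0.0191), and that call was lost without CKI replicate 3, the highest of the 3, at 0.59 (edgeR adjusted p = 0.142). The N_Nme call was lost without N_Nme replicate 1 (log2 fold changes of 0.74 to 1.08 with adjusted p up to 0.0612) and the N_Tri call without untreated replicate 2 or 3 or N_Tri replicate 1 (0.62 to 0.99 with adjusted p up to 0.0995). With DESeq2's Wald test N_Tri had an adjusted p of 0.0718.

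ID3 fell in every group of batch 1 except N_2 at 48 h. At 24 h the untreated libraries held 23.2, 23.5 and 23.9 CPM, and OO held 2.53, 4.31 and 1.95 CPM, MOO 3.86, 3.25 and 3.41 CPM and N_3 4.65, 1.54 and 3.89 CPM. The fall with OO was 8.04-fold (log2 fold change -3.01 ± 0.26 (SE), edgeR adjusted p = 0.000575), with a log2 fold change of -3.41 (edgeR adjusted p = 0.000169) without OO replicate 2. With MOO the fall was 6.75-fold (log2 fold change -2.75 ± 0.10 (SE), edgeR adjusted p = 4.65e-08), and no treated library overlapped an untreated one. CKI held 12.4, 4.05 and 4.13 CPM, with the unnumbered replicate 1 well above the other 2 (log2 fold change -1.77 ± 0.40 (SE), edgeR adjusted p = 0.0105), and without that library the fall was -2.53 (edgeR adjusted p = 3.18e-08). N_2 held 5.83, 4.76 and 8.38 CPM (log2 fold change -1.85 ± 0.19 (SE), edgeR adjusted p = 5.58e-05). At 48 h the untreated level of batch 1 was 10.4, 11.0 and 10.1 CPM, CKI held 3.06, 2.32 and 2.34 CPM (log2 fold change -2.03 ± 0.13 (SE), edgeR adjusted p = 3.42e-10) and OO 1.23, 1.23 and 2.24 CPM (log2 fold change -2.73 ± 0.17 (SE), edgeR adjusted p = 2.99e-11). N_2 was back near the untreated level with 9.30, 7.83 and 9.91 CPM (log2 fold change -0.20 ± 0.11 (SE), edgeR adjusted p = 0.104).

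In batch 2 ID3 was low without treatment, at 2.24, 3.49 and 1.87 CPM, and whole CKI was the 1 group in which it was higher, at 4.95, 5.40 and 5.37 CPM, above all untreated libraries (log2 fold change 1.07 ± 0.19 (SE), edgeR adjusted p = 0.000233). N_Nme held 1.15, 0.922 and 1.68 CPM and was lower (log2 fold change -1.003 ± 0.27 (SE), edgeR adjusted p = 0.00343). N_Mac and N_Omt, with 2.32, 1.88 and 2.09 CPM and 2.59, 2.12 and 2.21 CPM, overlapped the untreated libraries and were not called (-0.26 and -0.11). N_Tri held 1.62, 1.49 and 1.92 CPM, of which replicate 3 lay above the lowest untreated library, and its call (-0.60 ± 0.24 (SE, edgeR adjusted p = 0.0426)) was lost without untreated replicate 2 or any 1 N_Tri library (-0.79 to -0.31 with adjusted p up to 0.226). Over both batches the CKI value of ID3 was -0.59 ± 0.39 (SE, edgeR adjusted p = 0.19), which joins a fall in batch 1 and a rise in batch 2, and it was called without batch 2 untreated replicate 3 only (-0.83 to -0.32 with adjusted p from 0.0467). The same fit gave ID1 a value of -0.98 ± 0.20 (SE, edgeR adjusted p = 0.000369).

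**Figure D4:**
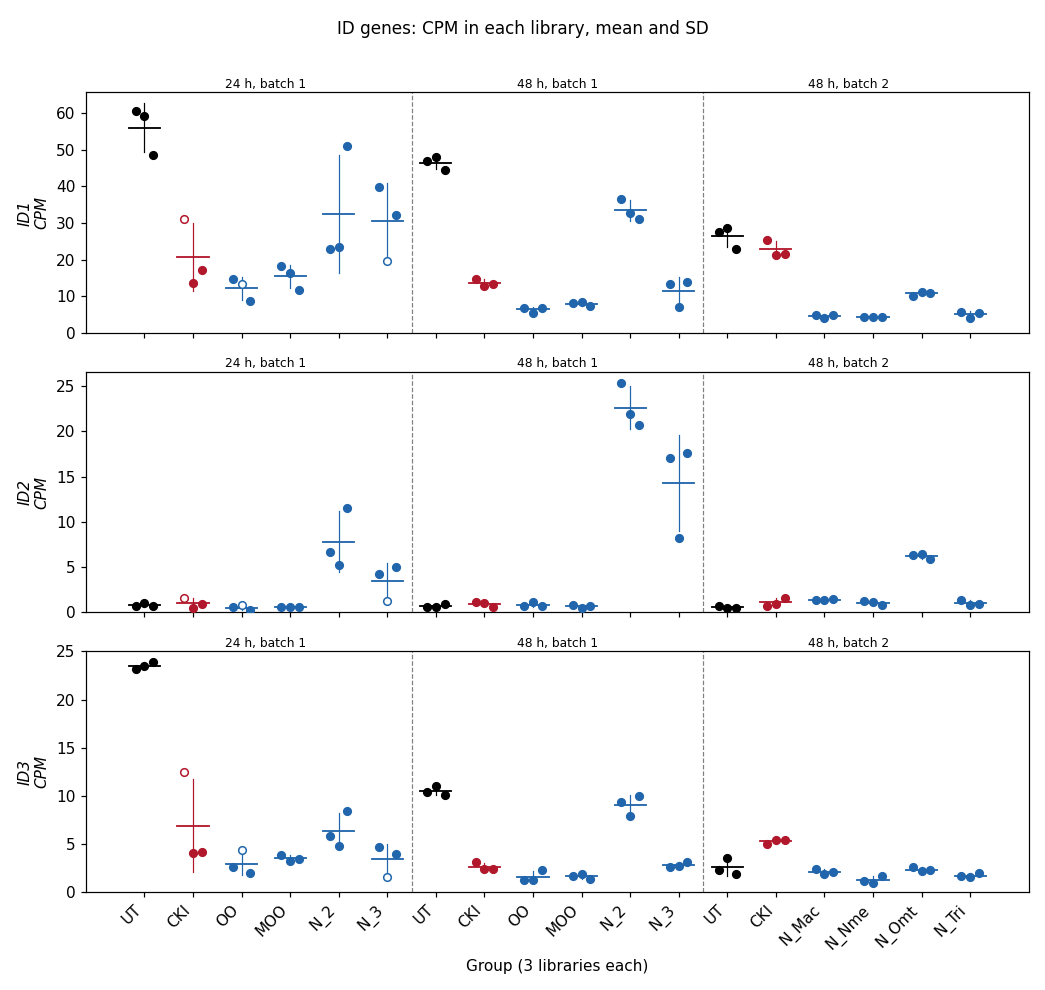
CPM (vertical axes, linear and from 0) of ID1, ID2 and ID3 in each of the 54 libraries by group, with the mean (horizontal line) and SD (vertical line) of 3 libraries, coloured as for the ligands. ID2 lies between 8.17 and 25.3 CPM in N_2 and N_3 at 48 h and at or below 1.62 CPM in all libraries of untreated cells, CKI, OO and MOO, and ID3 with CKI lies below untreated cells in batch 1 and above them in batch 2.

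Whether the CKI effect differed between the batches at 48 h was tested by an interaction term over 12 libraries, and 6 of 10 members were called (13.8% of all genes). For ID3 the log2 fold change in batch 2 minus that in batch 1 was 3.10 ± 0.23 (SE, edgeR adjusted p = 1.2e-08) and for ID1 1.57 ± 0.12 (SE, edgeR adjusted p = 2.48e-08). TGFB2 fell further in batch 2 (-0.72 ± 0.10 (SE, edgeR adjusted p = 2.88e-05)), and TGFB1 and TGFBR1 rose further, by 0.30 and 0.37. SKIL was called higher in batch 2 only, with a difference of 0.43. The TGFB1 difference was lost without batch 2 untreated replicate 1 or batch 2 CKI replicate 1 or 3 (0.25 to 0.39 with adjusted p up to 0.0592). The SKIL difference was lost in 7 of the 12 fits that leave out 1 library (0.35 to 0.56 with adjusted p up to 0.0737), those without batch 1 untreated replicate 1 or 2, batch 1 CKI replicate 2 or 3, batch 2 untreated replicate 1, or batch 2 CKI replicate 1 or 3. SMAD3 and SMAD7 were not called, with differences of 0.01 and -0.22.

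The untreated cells against which these ratios are taken differed as well. In batch 2 at 48 h, 7 members were called against untreated cells of batch 1 (58.8% of all genes), 6 of them lower. ID3 was 2.53 ± 0.847 CPM (SD, n = 3) in batch 2 and 10.5 ± 0.479 CPM (SD, n = 3) in batch 1 (log2 fold change -2.10 ± 0.17 (SE), edgeR adjusted p = 4.15e-07), and ID1 26.3 ± 3.02 CPM (SD, n = 3) and 46.4 ± 1.75 CPM (SD, n = 3) (log2 fold change -0.86 ± 0.08 (SE), edgeR adjusted p = 1.79e-06). TGFB1, TGFB2, SMAD3 and SMAD7 were lower in batch 2, at -0.84, -0.45, -0.52 and -0.44 on the log2 scale, and TGFBR2 was higher, at 0.20. The SMAD7 call was lost without batch 1 replicate 3 (-0.54 to -0.29 with adjusted p up to 0.0873) and the TGFBR2 call without batch 2 replicate 1 (0.18 to 0.24 with adjusted p up to 0.0531). Within batch 1, 3 members were called between untreated cells at 48 and 24 h (25.2% of all genes): ID3 was lower at 48 h (-1.17 ± 0.08 (SE, edgeR adjusted p = 1.44e-06)), TGFB2 higher (0.51 ± 0.09 (SE, edgeR adjusted p = 0.00146)) and ID1 lower (-0.28 ± 0.08 (SE, edgeR adjusted p = 0.0242)). The ID1 call was lost without 24 h replicate 1 or 2 or 48 h replicate 3 (-0.38 to -0.22 with adjusted p up to 0.129). The part of these baseline differences in the batch differences of CKI was not tested.

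The change from 24 to 48 h was tested the same way within batch 1. N_2 had 6 members whose effect differed between the times (41% of all genes). ID2 rose further at 48 h (1.79 ± 0.50 (SE, edgeR adjusted p = 0.011), lost without 24 h untreated replicate 2, 1.49 to 2.20 with adjusted p up to 0.0621), ID3 fell less (1.66 ± 0.22 (SE, edgeR adjusted p = 7.58e-05)), and the TGFB2 value went from higher to lower (-1.19 ± 0.18 (SE, edgeR adjusted p = 0.000181)). TGFBR1 and TGFBR2 were lower at 48 h relative to 24 h (-0.76 and -0.59) and SMAD3 higher (0.63). For N_3, SMAD3 was the 1 member called (0.86 ± 0.14 (SE, edgeR adjusted p = 0.0058), 3.54% of all genes). Without N_3 replicate 2 at 24 h ID1, ID2, ID3, SKIL and TGFBR1 were called as well, at -1.33 (edgeR adjusted p = 0.00325), 1.94 (edgeR adjusted p = 0.0279), 0.61 (edgeR adjusted p = 0.0372), 0.51 (edgeR adjusted p = 0.0446) and 0.39 (edgeR adjusted p = 0.0466) in that order, and ID2 was also called without N_3 replicate 2 at 48 h. The 3.54% belongs to the fit of all libraries. The share of all genes without N_3 replicate 2 is not given here, so these added calls cannot be called particular to the members. MOO had SKIL (0.52 ± 0.15 (SE, edgeR adjusted p = 0.0209)) and ID1 (-0.68 ± 0.18 (SE, edgeR adjusted p = 0.0127)) called (21% of all genes), the first lost without untreated replicate 3 of either time, MOO replicate 2 at 24 h or MOO replicate 1 or 3 at 48 h (0.40 to 0.62 with adjusted p up to 0.0617). No member was called for CKI (1.56% of all genes, 0 members by DESeq2 and 3 at an unadjusted p under 0.05) or for OO (11.9% of all genes, 2 members by DESeq2 and 4 at an unadjusted p under 0.05). Single libraries moved that as well. TGFB2 was called for CKI without CKI replicate 1 at 24 h (-0.74 to -0.36 with adjusted p from 0.00401), ID1 for OO without OO replicate 3 at 24 h (-0.84 to -0.48 with adjusted p from 0.00792), and SMAD7 and TGFBR2 for OO without OO replicate 1 at 24 h (0.54 to 0.88 with adjusted p from 0.0114 and -0.55 to -0.38 with adjusted p from 0.000464). For N_2, ID1, SKIL and SMAD7 were called without N_2 replicate 3 at 24 h (0.12 to 0.79 with adjusted p from 1.73e-05, -0.47 to -0.15 with adjusted p from 0.00536 and 0.12 to 0.47 with adjusted p from 0.0206).

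**Figure D5:**
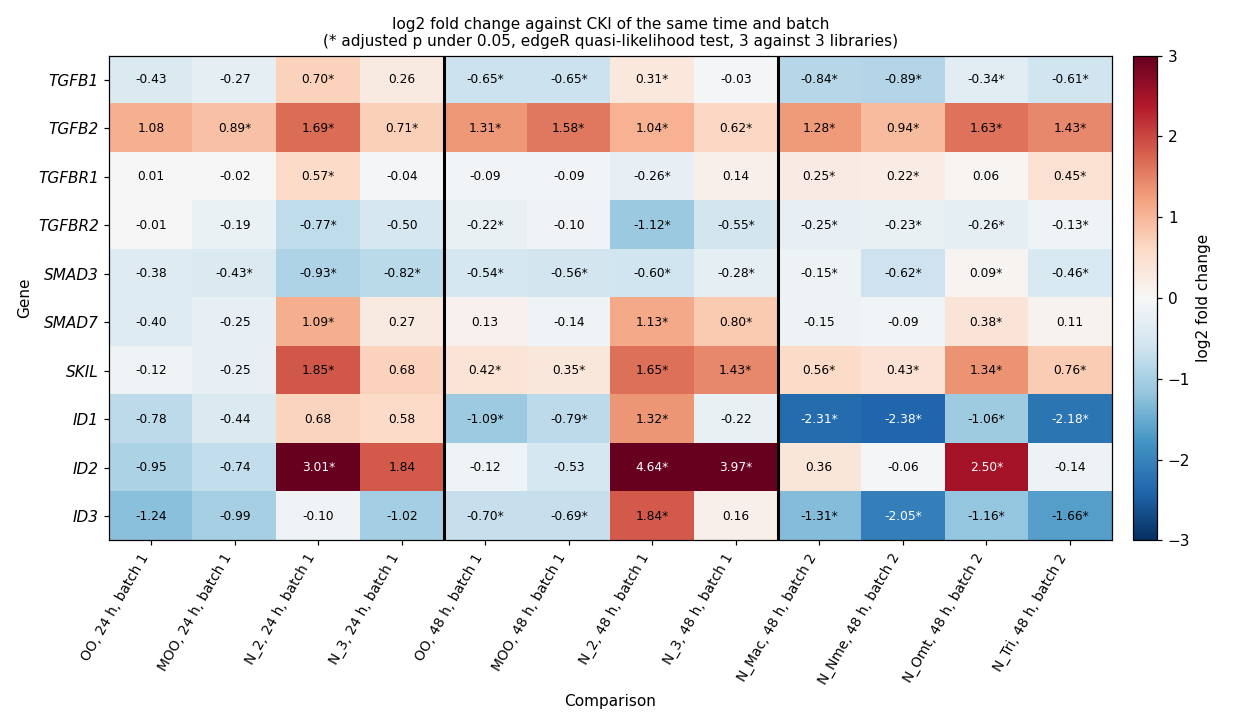
Log2 fold change of the 10 genes (rows) in each mixture (columns) against whole CKI of the same time and batch, 3 libraries against 3, with stars for an adjusted p under 0.05 and a colour scale that ends at 3 in either direction. TGFB2 is starred higher in 11 of 12 columns, and in batch 2 ID1 and ID3 are starred lower in all 4 mixtures that lack 1 compound.

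Set directly against whole CKI, 74 of 120 pairs of a member and a mixture were called, 37 in each direction. TGFB2 was higher than with CKI in 11 of 12 comparisons and lower in none, SMAD3 lower in 10 and higher in 1, and SKIL higher in 9. TGFBR2 was lower in 8. How often other genes were called in 1 direction over these comparisons was not counted. In batch 2, 8 members were called for N_Mac (72.8% of all genes), 8 for N_Nme (72.7%), 9 for N_Omt (80.5%) and 8 for N_Tri (77.1%). ID1 was lower than with CKI in each, at -2.31 in N_Mac, -2.38 in N_Nme, -2.18 in N_Tri and -1.06 in N_Omt on the log2 scale, with edgeR adjusted p of at most 6.17e-14. For ID3 the differences were -1.31, -2.05, -1.66 and -1.16 in the same order. TGFB1 was lower as well (-0.84, -0.89, -0.61 and -0.34) and TGFB2 higher (1.28, 0.94, 1.43 and 1.63). N_Omt was the 1 mixture of batch 2 in which ID2 (2.505 ± 0.18 (SE, edgeR adjusted p = 3.35e-18)) and SMAD7 (0.38 ± 0.07 (SE, edgeR adjusted p = 2.7e-06)) were called higher than with CKI, and its SKIL difference was 1.34 ± 0.06 (SE, edgeR adjusted p = 1.32e-27). ID2 for N_Mac was called without CKI replicate 3 (0.15 to 0.75 with adjusted p from 0.0297), SMAD7 for N_Mac, lower, without CKI replicate 2 (-0.22 to -0.11 with adjusted p from 0.02), SMAD7 for N_Tri without N_Tri replicate 1 (0.04 to 0.19 with adjusted p from 0.024) and TGFBR1 for N_Omt without N_Omt replicate 1 (0.03 to 0.08 with adjusted p from 0.0345). The SMAD3 calls for N_Mac, lower (-0.15), and for N_Omt, higher (0.09, with overlapping libraries), were lost without CKI replicate 1 and without CKI replicate 2 or 3 (-0.20 to -0.12 with adjusted p up to 0.0511 and 0.06 to 0.12 with adjusted p up to 0.182).

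In batch 1 at 48 h all 10 members differed between N_2 and CKI (77.8% of all genes), and no N_2 library overlapped a CKI library. The share of all genes without overlap was not counted, so this separation cannot be called particular to the members. ID2 was 24.9-fold higher with N_2 (4.64 ± 0.15 (SE, edgeR adjusted p = 8.41e-17)), ID3 3.57-fold (1.84 ± 0.15 (SE, edgeR adjusted p = 2.55e-10)), SKIL 3.15-fold (1.65 ± 0.07 (SE, edgeR adjusted p = 6.65e-15)) and ID1 2.501-fold (1.32 ± 0.08 (SE, edgeR adjusted p = 2.73e-12)), and TGFBR2 was lower (-1.12 ± 0.05 (SE, edgeR adjusted p = 2.05e-14)). N_3 had 6 members called (60.5% of all genes), with ID2 at 3.97 ± 0.34 (SE, edgeR adjusted p = 9.33e-06) and SKIL at 1.43 ± 0.09 (SE, edgeR adjusted p = 1.08e-06), while ID1 and ID3 were not called (-0.22 and 0.16). OO had 7 called (64.6% of all genes) and MOO 6 (57.9%). Both held more TGFB2 (1.31 and 1.58) and less TGFB1 (-0.65 and -0.65), SMAD3 (-0.54 and -0.56) and ID1 (-1.09 and -0.79) than whole CKI. The ID3 call for OO was lost without OO replicate 1 or 2 (-1.06 to -0.54 with adjusted p up to 0.0823, the largest difference being that without OO replicate 3) and the SMAD3 call for N_3 without CKI replicate 2 or 3 or N_3 replicate 3 (-0.34 to -0.22 with adjusted p up to 0.122). TGFB1 for N_3 was called lower without N_3 replicate 2 (-0.19 to 0.04 with adjusted p from 0.0166), SMAD7 for MOO without CKI replicate 3 or MOO replicate 2 (-0.20 to -0.09 with adjusted p from 0.0358), SMAD7 for OO without CKI replicate 1 (0.07 to 0.18 with adjusted p from 0.0165) and TGFBR1 for OO without OO replicate 3 (-0.11 to -0.08 with adjusted p from 0.0479).

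At 24 h the comparisons with CKI include the unnumbered CKI replicate 1. For N_2, 8 members were called (54% of all genes), ID2 being 8.04-fold higher (3.01 ± 0.48 (SE, edgeR adjusted p = 0.00101)), SKIL 1.85 ± 0.19 (SE, edgeR adjusted p = 0.000135) and TGFB2 1.69 ± 0.21 (SE, edgeR adjusted p = 0.000332). For ID2 the difference was 3.60 (edgeR adjusted p = 0.00119) without CKI replicate 1, and ID1 was then called too, at 1.11 (edgeR adjusted p = 0.041). The TGFB1 call for N_2 was lost without CKI replicate 1 or 2 (0.50 to 0.85 with adjusted p up to 0.0559) and the TGFBR1 call without CKI replicate 3 or N_2 replicate 1 or 2 (0.44 to 0.73 with adjusted p up to 0.0572). MOO had 2 members called (16% of all genes), TGFB2 (0.89 ± 0.19 (SE, edgeR adjusted p = 0.0224)) and SMAD3 (-0.43 ± 0.09 (SE, edgeR adjusted p = 0.0167)), both lost without any 1 MOO library and SMAD3 also without CKI replicate 2 (0.70 to 1.06 with adjusted p up to 0.0915 and -0.46 to -0.37 with adjusted p up to 0.0921). Without CKI replicate 1, TGFB1 and SMAD7 were called lower for MOO as well (-0.39 to -0.15 with adjusted p from 0.0289 and -0.38 to -0.17 with adjusted p from 0.0103). No member was called between OO and CKI (2.32% of all genes), where 4 had an unadjusted p under 0.05 and DESeq2 called 1, TGFB2. Without CKI replicate 1 and OO replicate 2 none was called either (1.98% of all genes), TGFB2 being nearest at 1.11 (edgeR adjusted p = 0.0747).

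N_3 against CKI at 24 h involves 2 of the unnumbered libraries. With all libraries, 2 members were called (23.1% of all genes), SMAD3 (-0.82 ± 0.11 (SE, edgeR adjusted p = 0.00484)) and TGFB2 (0.71 ± 0.21 (SE, edgeR adjusted p = 0.0494)), and the TGFB2 call was lost without any 1 of the 6 libraries (0.51 to 0.88 with adjusted p up to 0.142). Without both CKI replicate 1 and N_3 replicate 2, a choice made after seeing the data, 8 members were called (62.5% of all genes), TGFB2 at 0.42 (edgeR adjusted p = 0.000886). ID2 was then 2.85 (edgeR adjusted p = 7.96e-09), ID1 1.26 (edgeR adjusted p = 2.36e-09), SKIL 0.95 (edgeR adjusted p = 3.82e-08), TGFBR2 -0.72 (edgeR adjusted p = 9.01e-08), SMAD7 0.42 (edgeR adjusted p = 0.000508) and TGFB1 0.38 (edgeR adjusted p = 0.000616). With N_3 replicate 2 alone left out, ID2, SKIL, SMAD7, TGFB1 and TGFBR2 were called, at 2.25 (edgeR adjusted p = 0.00907), 0.88 (edgeR adjusted p = 0.00358), 0.56 (edgeR adjusted p = 0.0342), 0.51 (edgeR adjusted p = 0.0389) and -0.75 (edgeR adjusted p = 0.00302). The share of all genes called in that fit is not given here, so these calls cannot be called particular to the members.

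The mixtures with and without Mac differed little between MOO and OO and more between N_3 and N_2. At 24 h edgeR called 0 of 14211 genes between MOO and OO (0%), with 569 genes at an unadjusted p under 0.05 and 0 called by DESeq2, and none of the 10 members was called or had an unadjusted p under 0.05. At 48 h 2 members were called (9.72% of all genes), TGFB2 higher with MOO (0.27 ± 0.05 (SE, edgeR adjusted p = 0.000926)) and SMAD7 lower (-0.27 ± 0.07 (SE, edgeR adjusted p = 0.0102)), the second lost without OO replicate 1 or 2 or MOO replicate 3 (-0.33 to -0.23 with adjusted p up to 0.083). Without MOO replicate 2, TGFB1, lower, and TGFBR2, higher, were called as well (-0.12 to 0.09 with adjusted p from 0.0483 and 0.10 to 0.14 with adjusted p from 0.0133). N_3 had 3 members lower than N_2 at 24 h (36.7% of all genes), SKIL (-1.17 ± 0.24 (SE, edgeR adjusted p = 0.00834)), TGFB2 (-0.97 ± 0.18 (SE, edgeR adjusted p = 0.00527)) and TGFBR1 (-0.62 ± 0.18 (SE, edgeR adjusted p = 0.0318)), the last lost without replicate 1 or 2 of N_2 or replicate 1 or 3 of N_3 (-0.76 to -0.48 with adjusted p up to 0.111). At 48 h 9 were called (39.2% of all genes). ID1 (-1.55 ± 0.20 (SE, edgeR adjusted p = 0.000267)) and ID3 (-1.69 ± 0.16 (SE, edgeR adjusted p = 5.29e-05)) were lower with N_3, and TGFBR2 (0.56 ± 0.09 (SE, edgeR adjusted p = 0.000695)) and TGFBR1 (0.39 ± 0.09 (SE, edgeR adjusted p = 0.00583)) higher. The libraries of the 2 mixtures overlapped for SMAD7 only, and the share of all genes without overlap was not counted. Of the other 5 called differences, that of ID2 was lost without any 1 N_2 library (-0.84 to -0.40 with adjusted p up to 0.143), with the value nearest 0, -0.40, without N_3 replicate 2, and that of TGFB1 without any 1 library but N_3 replicate 2 (-0.50 to -0.27 with adjusted p up to 0.154). The SMAD3 call was lost without any 1 N_2 library or N_3 replicate 1 (0.25 to 0.38 with adjusted p up to 0.137), the SMAD7 call without N_2 replicate 1 or 3 or N_3 replicate 3 (-0.43 to -0.25 with adjusted p up to 0.168) and the TGFB2 call without N_2 replicate 1 or 3 (-0.55 to -0.30 with adjusted p up to 0.075). SKIL was called lower with N_3 without N_3 replicate 2 (-0.26 to -0.20 with adjusted p from 0.0139).

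The other genes of the pathway were read from 7 lists of 91 genes in all. With CKI at 24 h, 36 of the 75 list genes tested were called, 21 higher and 15 lower, beside 38.7% of all genes, and at 48 h over both batches 55 of 77, 25 higher and 30 lower, beside 71.5%. The median of their log2 fold changes was 0.05 at the first time and 0.02 at the second, and that of all genes tested 0.01 and 0.00071. Without CKI replicate 1, 50 of 76 were called at 24 h, 27 higher and 23 lower, beside 53% of all genes, with a median of 0.05. In that fit all 19 of the genes named here from the lists were called in the same direction, INHBB moving most, to -0.64. Within batch 1 at 48 h, 51 of 76 were called, 25 higher, beside 62.5% of all genes, and within batch 2, 61 of 78, 28 higher, beside 68.4%. Of 15 ligand and latency genes tested at each time, 10 were called at 24 h (6 higher) and 11 at 48 h (6 higher), with list medians of -0.14 and -0.04. Within batch 1 at 48 h, 12 of 15 were called, 5 of them higher (median -0.06), and within batch 2, 13 of 16, 8 of them higher (median 0.23). GDF11, a ligand of the activin branch, rose by 1.54 ± 0.10 (SE) at 24 h and 1.39 ± 0.05 at 48 h on the log2 scale, from 14.8 ± 1.19 to 39.3 ± 2.25 CPM (SD, n = 3) in batch 1 at 48 h. LTBP3, which holds latent ligand in the matrix, rose by 0.91 ± 0.14 and 1.23 ± 0.06, and BMP8B by 0.85 ± 0.15 and 0.997 ± 0.09. INHBB, the activin B subunit gene, fell (-0.98 ± 0.31 and -1.39 ± 0.11), with -1.20 in batch 1 and -1.78 in batch 2 at 48 h.

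In the list of secreted antagonists, which also holds THBS1, a matrix protein known to free latent TGF-beta, all called genes were lower with CKI, 3 of 6 tested at 24 h and 5 of 8 at 48 h (medians of -0.71 and -0.44). At these times 38.7% and 71.5% of all genes were called. FST, which traps activin, fell from 91.8 ± 3.76 to 15.6 ± 0.875 CPM (SD, n = 3) in batch 1 at 48 h, with log2 fold changes of -2.18 ± 0.28 (SE) at 24 h and -2.52 ± 0.05 over both batches at 48 h. THBS1 was lower (-1.30 ± 0.09 and -1.28 ± 0.09), and so was FSTL1 (-0.82 ± 0.17 and -0.89 ± 0.06). In batch 1 and batch 2 at 48 h the values were -1.55 and -1.001 for THBS1 and -0.70 and -1.09 for FSTL1. Of the other receptors, 7 of 11 tested were called at 24 h (5 higher) and 9 of 10 at 48 h (7 higher), beside 38.7% and 71.5% of all genes, with medians of 0.42 and 0.35. The co-receptor gene TGFBR3 rose by 0.97 ± 0.12 and 1.26 ± 0.11, the pseudoreceptor gene BAMBI by 0.46 ± 0.13 and 0.71 ± 0.06, ACVR1 by 0.54 ± 0.13 and 0.41 ± 0.06 and BMPR1A by 0.32 ± 0.09 and 0.22 ± 0.05. TGFBR3 was at 0.94 in batch 1 and 1.59 in batch 2 at 48 h. BMPR1A was at 0.13 in batch 1, where it was not called, and 0.31 in batch 2.

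Beside the counts that follow, 38.7% of all genes were called at 24 h and 71.5% at 48 h. Within batch 1 and batch 2 at 48 h the shares were 62.5% and 68.4%, and without CKI replicate 1 at 24 h 53%. Among the other SMAD genes 1 of 5 tested was called at 24 h and 4 of 6 at 48 h, 3 of these lower (medians of -0.24 and -0.24), and SMAD2, the partner of SMAD3, was lower at both (-0.47 ± 0.11 and -0.19 ± 0.04). Of 17 intracellular regulators 4 were called at 24 h, all higher, and 9 at 48 h, 4 higher (medians of 0.20 and 0.05). Without CKI replicate 1, 7 were called at 24 h, 6 higher and 1 lower. Within batch 1 at 48 h 6 of them were called, 4 higher, and within batch 2, 11, 5 higher. TRIM33, which acts on SMAD4, rose by 0.62 ± 0.17 and 0.54 ± 0.04, the phosphatase gene PPM1A by 0.43 ± 0.09 and 0.39 ± 0.04, and ZFYVE9, which brings SMADs to the receptor, by 0.65 ± 0.14 and 0.26 ± 0.05. Of 16 known targets tested, 11 were called at 24 h (6 higher) and 14 at 48 h (6 higher), with medians of 0.01 and -0.04. At 48 h the batches had list medians of opposite sign. Within batch 1, 15 of 16 were called, 8 higher and 7 lower (median 0.30, 62.5% of all genes), and within batch 2 all 16, 6 higher and 10 lower (median -0.37, 68.4% of all genes). The cell cycle inhibitor gene CDKN1A rose by 0.87 ± 0.15 and 1.04 ± 0.05, while FN1 (-0.98 ± 0.12 and -1.29 ± 0.14), which encodes fibronectin, SNAI2 (-0.96 ± 0.15 and -1.17 ± 0.05), a transcription factor of mesenchymal cells, and TAGLN (-1.78 ± 0.16 and -1.12 ± 0.19) were lower. Within the batches at 48 h, FN1 was at -0.73 in batch 1 and -1.86 in batch 2, and TAGLN at -1.82 and -0.40. CDKN1A was higher in all 15 treated groups and largest in N_3 and N_2 at 48 h (2.83 and 2.80) and in N_Omt (2.33). Of the partners of ID proteins and related genes, edgeR called 0 of 5 tested at 24 h, with 0 at an unadjusted p under 0.05 and 0 by DESeq2, and 3 at 48 h, 1 higher (medians of 0.06 and 0.08, the second being 0.32 within batch 1 and -0.13 within batch 2). Without CKI replicate 1, 2 of these 5 were called at 24 h, both lower, and 2 of 6 other SMAD genes, both lower. Over the mixtures, the number of the 91 genes called went from 20 of 73 tested with OO at 24 h to 71 of 79 with N_2 at 48 h, beside 16.5% and 80.4% of all genes.

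Likeness of pattern was described by Pearson's r of the log2 ratio to untreated cells over the 15 treated groups, among up to 11052 genes whose mean reached 5 CPM. The groups share untreated libraries, and r is a description only. ID2 was most like SLC35E2B (r = 0.976), CDKN1A (0.975) and MZF1-AS1 (0.962), and SKIL most like ZNF823 (0.976), TROVE2 (0.976) and UBE2R2 (0.974). SMAD7 was most like MAFK (0.970), SNAPC4 (0.963) and the fourth ID gene, ID4 (0.961). TGFBR2 was most like ADGRG6 (0.977), ARL15 (0.970) and IMPAD1 (0.953), and TGFB1 like FSCN1 (0.956), which encodes fascin, KLHDC8B (0.954) and ZFP36L2 (0.944). ID1 was most like CD14 (0.953), NMB (0.952) and RILP (0.933), and TGFB2 like CDK5R1 (0.948), FST (0.892) and ZNF496 (0.875). For ID3 (C1QTNF6, 0.895, IL15, 0.874, and MAP3K8, 0.851) and TGFBR1 (UQCRB, 0.899, RNPC3, 0.870, and FERMT2, 0.861) the closest genes were less alike. Among the members, r was 0.90 between TGFB1 and ID1, 0.88 between SMAD7 and ID2 and 0.87 between SKIL and ID2, and -0.90 between TGFBR2 and SMAD7 and -0.88 between TGFBR2 and ID2. Between the ID genes themselves it was 0.49 for ID1 and ID2, 0.40 for ID1 and ID3 and 0.38 for ID2 and ID3. A high r does not mean a shared direction of change. TGFB1 had log2 fold changes from 0.04 to 1.24 over the 15 groups and ID1 from -2.87 to -0.20. Outside N_2, N_3 and N_Omt those of ID2 were between -0.65 and 1.32, and within them between 2.13 and 5.09. The r values of ID2, those with other members included, may therefore rest mostly on these 3 mixtures. No r was computed without them.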

How the data were processed

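RNA of MDA-MB-231 cultures was enriched for messenger RNA with oligo(dT) and sequenced from both ends with strand kept. The authors deposited 1 table of raw counts per gene for the 54 libraries, and the submitters' processing notes name FastQC 0.11.4, Trim Galore 0.3.7, STAR 2.5.3a, Subread 1.5.2 with featureCounts, edgeR 3.22.3 and the build hg19. The annotation release is not given in the sources used here. Reads that fit more than 1 gene could have been dropped or split by the counting, and without gene lengths levels were not compared between genes.

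Groups were taken from the sample labels and columns from their names. Counts were tested with edgeR 4.0.16 (limma 3.58.1, R 4.3.3) by the quasi-likelihood test after filterByExpr (minimum count 10) and TMM scaling, with 3 libraries against 3 in each pairwise fit, and p-values were adjusted by Benjamini-Hochberg over all genes tested. CKI at 48 h in both batches had the batch as a term, and differences of an effect between times or batches were interaction terms over 12 libraries. The code was tested on simulated data. Library totals were 17673537 to 26138924 (median 22568666.5), and no pair of libraries held identical counts (0). Alternatives were RLE size factors, library totals alone, DESeq2 1.42.0, no filter, a mean of at least 1 CPM, a replicate block, a fit of all 18 libraries of a time and batch, a minimum size of 1 for the log2 fold change in either direction, and leaving out each library in turn. Leaving out the libraries whose columns carry no replicate number was added after seeing the data.

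The 10 genes and the pathway lists were chosen with earlier results of these data known. From each list the text names up to 4 genes, those with the largest change at 48 h among genes called in the same direction with CKI at 24 h and at 48 h and with a mean of at least 5 CPM, and for each of the 10 genes the 3 with the highest correlation of log2 ratios, of which those of SMAD3 are not reported here. CDKN1A in the other treated groups was added after its values were seen. Promoter windows are from RefSeq on GRCh38.p14 and no coordinate of hg19 was used. They were matched by gene symbol and the outer end of the gene's RefSeq span for 10 of 10 genes.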

Additional observations from a re-analysis of the deposited data

Results flagged for a closer look

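The effects below differed between 2 times or 2 batches by an interaction test over 12 libraries (edgeR, adjusted over all genes tested), and each value is the log2 fold change at the later time, or in batch 2, minus that at the earlier time, or in batch 1. For CKI at 48 h, batch 2 minus batch 1, the values were 3.10 for ID3, 1.57 for ID1, 0.43 for SKIL, 0.37 for TGFBR1, 0.30 for TGFB1 and -0.72 for TGFB2. With CKI all 3 batch 1 libraries of ID3 lay below the untreated ones and all 3 batch 2 libraries above them. For N_2, 48 h minus 24 h, they were 1.79 for ID2, 1.66 for ID3, 0.63 for SMAD3, -0.59 for TGFBR2, -0.76 for TGFBR1 and -1.19 for TGFB2. For MOO they were 0.52 for SKIL and -0.68 for ID1, and for N_3 the value of SMAD3 was 0.86. Between the batches, untreated cells differed in ID3 by -2.10 and in ID1 by -0.86, and their part in the batch differences was not tested. With 3 libraries a group, no test for single libraries far from the rest of their group was made.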

How the results depend on the processing

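No called value of the 10 genes changed sign under any alternative, and in 2577 of the 2713 comparisons of a value with its alternative other than leaving a library out, and 2529 of 2820 on leaving 1 library out, the direction and the side of the threshold were kept. The 110 calls against untreated cells became 109 with RLE size factors, with library totals alone, with DESeq2 and with the replicate block, 111 without a filter, 106 at a mean of at least 1 CPM and 104 in the fit of all 18 libraries. The 74 calls against CKI became 71 with library totals alone, 73 with the replicate block, 74 without a filter, 75 with RLE or the CPM filter, 77 with DESeq2, 78 with all 18 libraries and 80 without the libraries whose columns carry no number. In 0 of 33 comparisons were all 3 correlations of same-numbered libraries over 0.1, and the main fits were unpaired. That rule cannot exclude pairing of some libraries. Against untreated cells at 24 h the correlations were 0.412, -0.0518 and 0.338 for OO, 0.287, -0.0573 and 0.312 for MOO and -0.223, 0.0422 and -0.372 for CKI. With the replicate block, the members called at 24 h went from 4 to 6 with MOO and from 7 to 5 with CKI. Asking for a log2 fold change of 1 or more in size left 50 calls against untreated cells, 29 against CKI, 3 of 14 between mixtures with and without Mac and 2 of 10 between untreated groups. The shares of all genes at that size are not given here. Whether the members keep large changes more or less often than other genes cannot be read from these counts. At that size 3 genes remained called with CKI, 2 with MOO, 5 with N_2 and 2 with N_3 at 24 h, 3 with CKI, 3 with OO, 2 with MOO and 6 with N_3 in batch 1 at 48 h, 3 each with CKI, N_Mac and N_Nme and 4 each with N_Omt and N_Tri in batch 2, and 1 with CKI over both batches. With all 18 libraries in 1 fit, 4 genes were called with CKI and 2 with MOO at 24 h. The number of all genes called is given below for MOO in this fit and for CKI with the block. For CKI in this fit and MOO with the block it is not given here. On leaving 1 library out, the count with CKI at 24 h was between 4 (without untreated replicate 1 or 2) and 8 (without CKI replicate 1), with N_3 at 24 h between 3 (without any 1 untreated library or N_3 replicate 3) and 9 (without N_3 replicate 2), and between mixtures with and without Mac between 9 (without N_2 replicate 1 or 3 at 48 h) and 16 (without MOO replicate 2 at 48 h). The shares of all genes are given above for CKI and N_3, and are not given here for the mixtures with and without Mac.

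Over all genes, the replicate block gave 3631 calls in place of 5512 for CKI at 24 h, 0 in place of 330 for OO against CKI, 204 in place of 2279 for MOO against CKI, 1023 in place of 3339 for N_3 against CKI, 1966 in place of 3571 between untreated times, and 1, 4662 and 277 in place of 232, 3100 and 529 for the time differences of CKI, MOO and N_3. DESeq2 gave 1123 for OO against CKI at 24 h and 847 and 1129 for the time differences of CKI and N_3. The fit of all 18 libraries gave 1588 in place of 5097 for MOO at 24 h, 1290 for OO and 5422 for N_3 against CKI at 24 h, and 307 in place of 1402 for MOO against OO at 48 h. Without the libraries whose columns carry no number, N_3 against CKI at 24 h had 9167. With library totals alone the median of all genes moved by -0.30 for N_2 at 24 h, where the share of calls that were higher went from 49.4% to 34.4%, by -0.34 for N_2 against CKI at 24 h (49.1% to 28.4%), by -0.15 for N_3 against CKI at 48 h (49.5% to 37.8%), by 0.28 and -0.12 for N_3 against N_2 at 24 and 48 h (50.6% to 75.1% and 50.2% to 31.2%), and by 0.36 for the time difference of N_2 (44.0% to 77.1%). The share also went from 53.4% to 67.3%, 38.5% to 51.5%, 41.4% to 58.7% and 26.3% to 11.7% for the time differences of CKI, OO, MOO and N_3. Depth limits ID2 most, with 7 to 38 reads in libraries of untreated cells, CKI, OO and MOO.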
